A study of Homo sapiens with 6 samples.

Results

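The genes of the TGF-beta and BMP pathway were followed in HEK293T cells treated with valproic acid (VPA), which inhibits histone deacetylases. Members were chosen by symbol: the TGF-beta, BMP, GDF, activin, inhibin and Nodal ligand genes, their receptors, the SMAD genes, ID1 to ID4, the latent TGF-beta binding proteins and secreted antagonists such as NOG, CHRD, FST, LEFTY1 and LEFTY2. Of the 47470 genes listed, 65 were members, and 52 of these had enough reads to be tested. HEK293T cells are an established line of human embryonic kidney origin with the large T antigen of SV40. The treated group received 1 mM VPA for 1 day, and by the paper's methods the control group received fresh medium without VPA. There were 3 libraries per condition, made from total RNA by a strand-specific mRNA protocol, and the genotype of the untreated cells is labelled WT. No label says whether the 3 libraries of a condition came from separate cultures, so the p-values measure the spread between these libraries, which may be technical.

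TGF-beta family ligands are secreted dimers that bind a type II and a type I receptor kinase, and the type I receptor then phosphorylates receptor SMADs, which enter the nucleus with SMAD4. TGF-beta and activins signal mainly through SMAD2 and SMAD3, and BMPs through SMAD1, SMAD5 and SMAD9, whose best known targets include the ID genes. Antagonists such as noggin, chordin and follistatin bind ligands outside the cell, LTBPs hold latent TGF-beta in the matrix, and SMAD6 and SMAD7 inhibit the pathway inside the cell. In the kidney, BMP7 maintains nephron progenitors and TGFB1 is known for its part in fibrosis.

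Counts on genes totalled 18622267 to 18828495 per library, and the chi-square per gene between libraries of 1 condition was 1.62 to 4.80, above sampling noise. The kidney developmental genes EYA1, SIX2, LHX1, WT1, EMX2 and PAX2 were detected, with log2 fold changes of 2.26 for PAX2 and 0.79 for LHX1, which were higher, and -0.68 for EYA1 and -0.38 for SIX2, which were lower, in edgeR. In contrast, PAX8 had 2 counts and CDH16 had 0 over the 6 libraries. Among markers of other cell types, PTPRC, CD3E, PECAM1 and CDH5 had 12, 1, 5 and 7 counts, VWF rose from 3 to 50 counts, and CD68 fell by 1.21 on the log2 scale (adjusted p = 9.97e-05, edgeR). In KRT8 and CDH1, both epithelial markers, the log2 fold changes were 1.37 and 1.92. The part of these marker changes in the results below was not tested.

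VPA-treated cells had more RNA of many ligand and antagonist genes, whereas the SMAD genes stayed near their untreated level or were lower. A gene was called when its adjusted p was below 0.05 and its log2 fold change was 1 or more, or -1 or less. By this rule 16 members were up-regulated and 0 were down-regulated by edgeR's quasi-likelihood test. Of all 15298 tested genes, 12.0% were up-regulated and 0.503% down-regulated, so that 30.8% of the tested members stood against 12.0% of all genes. By DESeq2 the numbers were also 16 and 0, with 15 of the 16 genes shared. DESeq2 was run without the count filter, and 7.49% of its 26353 genes were up-regulated. At an unadjusted p under 0.05 in edgeR, 0 members were lower by a log2 value of 1 or more and 10 were lower by any amount. At the adjusted p alone, 28 members were higher and 10 lower, which is 53.8% and 19.2% of the tested members, against 32.9% and 30.0% of all genes. The median log2 fold change was 0.28 over the tested members and 0.0058 over all tested genes. Of the up-regulated members 5, among them TGFB2, BMP5, INHBA and FST, had fewer than 10 counts in some untreated library, so these could pass the filter on low counts only through the treated libraries. Among the 46 members with at least 10 counts in every library, 11 were up-regulated in the fit limited to such genes, against 8.49% of all genes there. In bulk RNA, more expressing cells and more RNA per cell cannot be told apart.

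**Figure D1:**
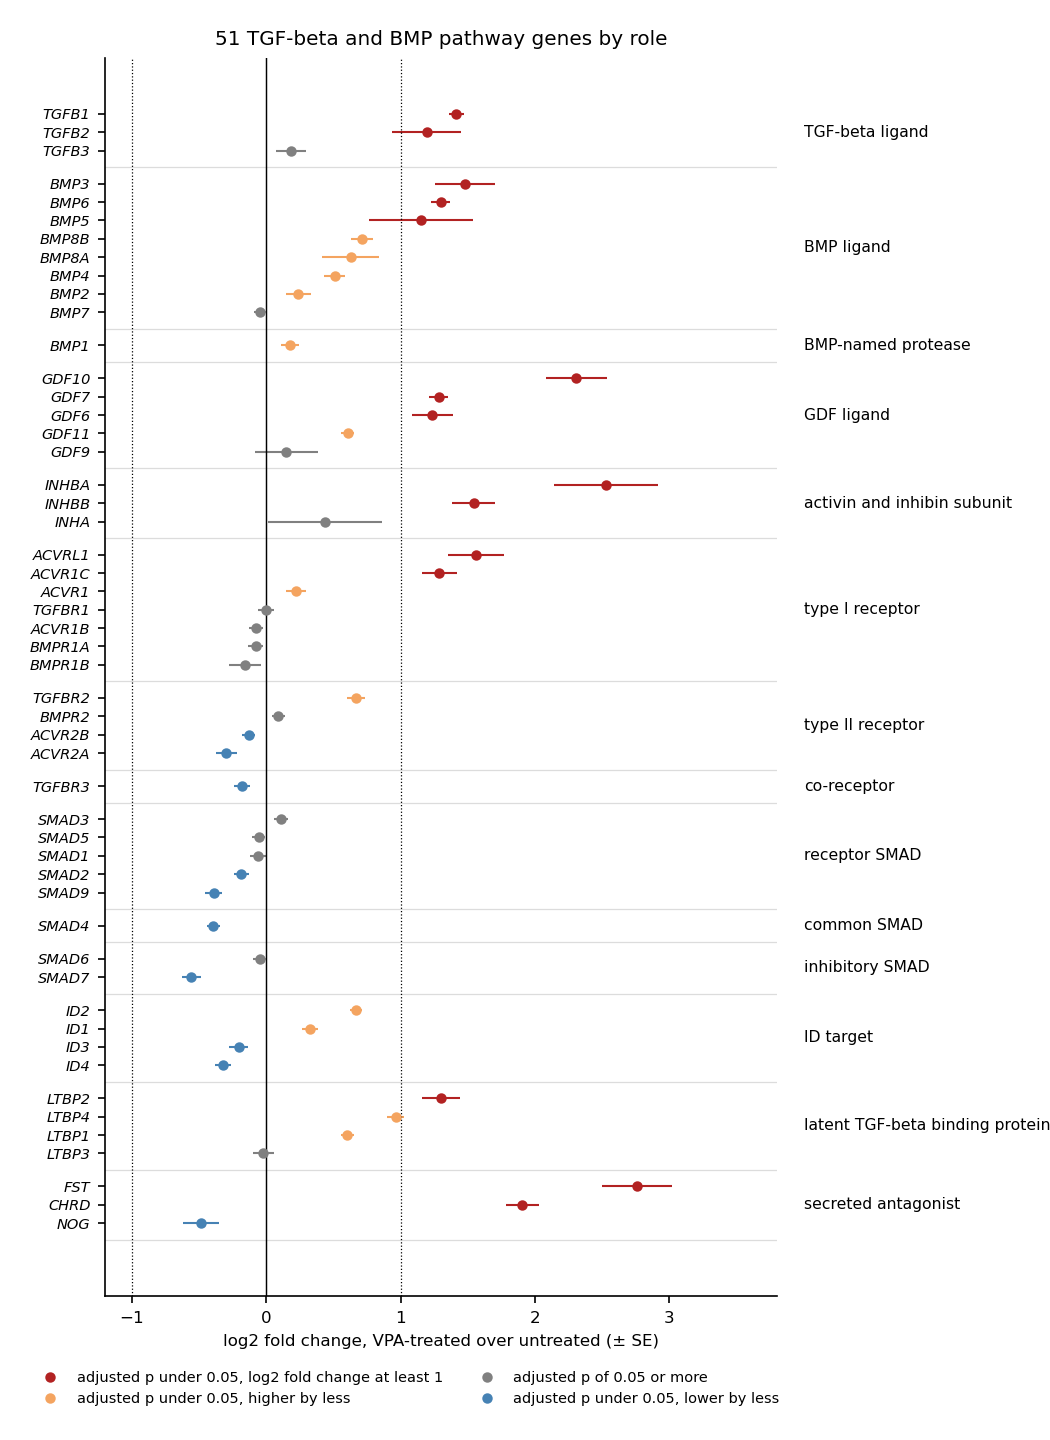
Log2 fold change of 51 tested members (VPA-treated over untreated, horizontal axis, bars ± SE), grouped by role, with dotted lines at log2 values of -1 and 1. Ligand and antagonist genes lie mostly right of 0, up to 2.76 for FST, whereas no SMAD gene passed the test on that side and SMAD7 lies lowest at -0.56.

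The up-regulated members were mostly genes with few reads. Of the 10 tested members with a mean under 50 normalized counts, 7 were up-regulated, as were 8 of the 20 members between 50 and 500 counts and 1 of the 22 members with 500 counts or more. The shares over all tested genes in the same 3 classes were 29.4%, 16.5% and 1.44%. TGFB1 was the up-regulated member of the highest class. The median log2 fold change of the members was 1.33, 0.59 and -0.05 in these classes, and that of all genes was 0.39, 0.19 and -0.12. Normalized counts here are counts scaled by TMM to the mean library.

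**Figure D2:**
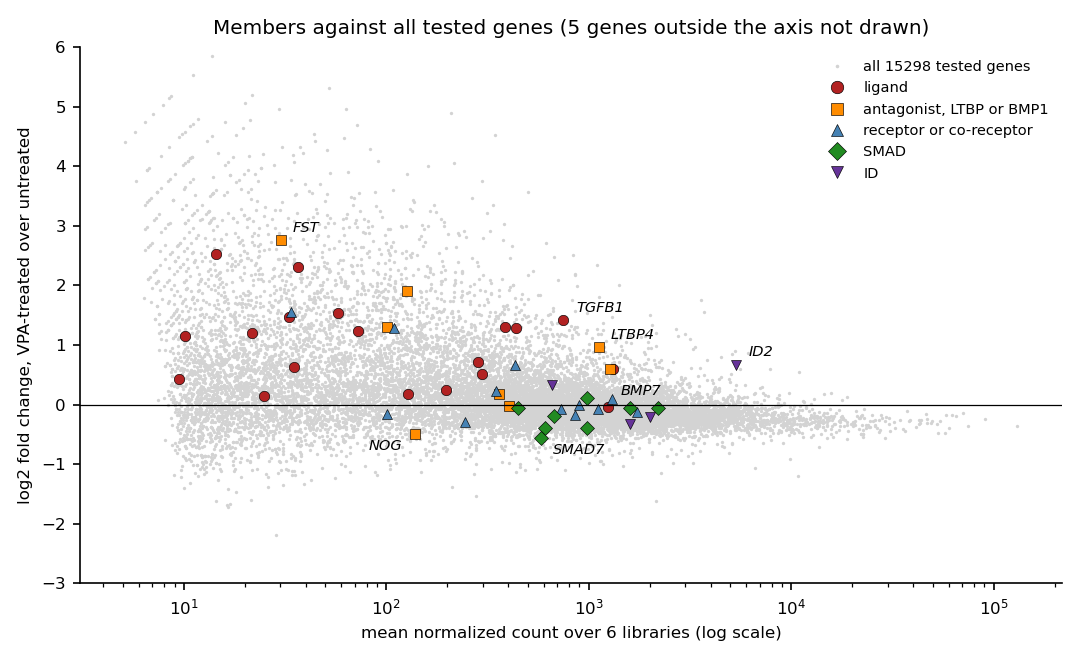
Mean normalized count over the 6 libraries (horizontal, log scale) against the log2 fold change (vertical) for all 15298 tested genes in grey, apart from 5 beyond the axis, and for 51 members by role. Members with high log2 fold changes sit mostly at low counts, and among the members with more reads TGFB1 at 1.41, LTBP4 at 0.96 and ID2 at 0.67 lie above 0.

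Promoter sequences of 5 members are shown as examples of different roles, chosen after their values were seen: the antagonists FST and CHRD and the ligands GDF10 and TGFB1, which rose, and SMAD7, which had the lowest log2 fold change. Each is the 250 bases before the RefSeq start on GRCh38.p14, given 5′ to 3′ on the strand of the gene. Capitals mark GC boxes (GGGCGG) and SMAD elements (CAGAC) on either strand. The windows are chr5:53480379-53480628 (plus strand) for FST, chr3:184379804-184380053 (plus) for CHRD, chr10:47299947-47300196 (plus) for GDF10, chr19:41353923-41354172 (minus) for TGFB1 and chr18:48950966-48951215 (minus) for SMAD7.
FST: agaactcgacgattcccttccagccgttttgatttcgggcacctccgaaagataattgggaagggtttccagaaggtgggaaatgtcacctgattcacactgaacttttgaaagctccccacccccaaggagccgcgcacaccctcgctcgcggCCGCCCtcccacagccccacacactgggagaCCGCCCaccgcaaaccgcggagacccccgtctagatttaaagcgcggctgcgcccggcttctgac
CHRD: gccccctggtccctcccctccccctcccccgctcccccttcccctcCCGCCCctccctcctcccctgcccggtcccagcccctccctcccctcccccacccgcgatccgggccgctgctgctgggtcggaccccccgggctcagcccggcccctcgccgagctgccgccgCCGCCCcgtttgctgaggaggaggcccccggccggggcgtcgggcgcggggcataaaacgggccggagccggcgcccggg
GDF10: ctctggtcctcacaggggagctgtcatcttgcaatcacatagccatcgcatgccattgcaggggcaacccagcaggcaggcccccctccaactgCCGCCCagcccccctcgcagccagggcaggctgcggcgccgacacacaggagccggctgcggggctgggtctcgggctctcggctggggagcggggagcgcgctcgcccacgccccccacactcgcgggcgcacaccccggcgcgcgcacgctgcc
TGFB1: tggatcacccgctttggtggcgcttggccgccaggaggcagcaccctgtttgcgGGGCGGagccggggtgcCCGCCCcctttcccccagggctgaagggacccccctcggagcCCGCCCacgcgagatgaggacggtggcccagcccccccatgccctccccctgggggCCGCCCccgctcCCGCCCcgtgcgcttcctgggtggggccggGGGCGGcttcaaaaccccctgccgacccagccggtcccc
SMAD7: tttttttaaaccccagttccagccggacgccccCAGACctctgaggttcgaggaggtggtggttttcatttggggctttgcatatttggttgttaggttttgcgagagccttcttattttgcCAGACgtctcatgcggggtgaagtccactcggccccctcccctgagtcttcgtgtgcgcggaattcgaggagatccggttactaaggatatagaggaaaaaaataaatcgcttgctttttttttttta
The FST and CHRD windows hold 2 GC boxes each, that of GDF10 holds 1, that of TGFB1 holds 6, and that of SMAD7 holds 0 GC boxes and 2 SMAD elements. Not all risers were alike, since the promoter of INHBA had 0 GC boxes and a GC content of 42.8%.

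RefSeq promoters were matched for 54 of the 65 members. BMP2, BMP3, BMP7, BMP1, GDF6, INHBE, ACVRL1, NOG, LEFTY1 and LEFTY2 had no entry. A GC box was present in 9 of the 12 matched promoters of up-regulated members (75.0%), in 20 of the 32 of other tested members (62.5%), in 66.8% of those of all tested genes and in 42.3% of all promoters of that length. A SMAD element was present in 1 of 12 (8.33%), that of TGFB2, and in 13 of 32 (40.6%), against 36.0% of tested genes and 37.8% of all promoters. The GC content had medians of 71.2% and 68.4% in these member groups and 65.2% over tested genes. These are descriptions of letters in a window.

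Among the TGF-beta ligands, TGFB1 and TGFB2 were up-regulated and TGFB3 did not pass the test. TGFB1, on chromosome 19 from 41330323 to 41353922, had 411, 423 and 396 normalized counts without VPA and 1112, 1091 and 1069 with VPA. The treated libraries were all far above the untreated ones, with little spread in either group, and the log2 fold change was 1.41 ± 0.056 (SE, n = 3 each; adjusted p = 5.18e-15, edgeR with Benjamini-Hochberg adjustment). TGFB1 shares 215 exon bases (6.6% of its exon length) with HNRNPUL1 on the opposite strand, which had 78008 counts over the 6 libraries against 4588 for TGFB1, and the strand setting of the counting is not given in the sources used here. TGFB2 had 16.6, 14.7 and 8.40 normalized counts without VPA and 28.7, 31.8 and 30.6 with it (log2 fold change 1.19 ± 0.26, adjusted p = 3.87e-04 in edgeR). Its groups did not overlap, but all 6 values were low, and without untreated replicate 3 its log2 fold change of 0.95 was under the threshold. TGFB3 averaged 119 ± 16.6 and 136 ± 7.64 normalized counts, and its groups overlapped (adjusted p = 0.17, edgeR); without untreated replicate 3, its log2 fold change of 0.18 became 0.30 and passed. On a scale per kilobase of exon, TGFB1 made up 83.4% ± 1.82 (SD, n = 3) of the summed level of the 3 genes in untreated cells and 91.5% ± 0.53 in treated cells, and TGFB3 15.2% ± 2.25 and 7.11% ± 0.45.

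BMP ligand genes rose by different amounts: of the 10 listed, 8 were tested, 3 were up-regulated, 4 more were higher by less and BMP7 did not pass. Among all tested genes 12.0% were up-regulated and 32.9% were higher at the adjusted p. BMP5 could pass the filter only with the treated libraries, so these shares are not a like comparison for it. BMP6, an osteogenic ligand that also regulates iron balance through hepcidin, had 221, 224 and 225 normalized counts in untreated cells and 538, 537 and 571 in treated cells. The groups lay far apart relative to their spread (log2 fold change 1.30 ± 0.070, adjusted p = 6.72e-13, edgeR). BMP3, which opposes other BMPs in bone, had 21.7, 12.6 and 17.8 against 43.1, 46.2 and 56.5 normalized counts, a log2 fold change of 1.48 ± 0.22 (adjusted p = 6.31e-06, edgeR). BMP5, a ligand of skeletal development, had 7.25, 7.33 and 4.20 against 13.4, 9.63 and 19.1 normalized counts. Its groups did not overlap, but the call of BMP5 (log2 fold change 1.15 ± 0.39, adjusted p = 0.0129) rested on few reads and was lost in DESeq2, without untreated replicate 3 (log2 fold change 0.93) and without VPA-treated replicate 3 (0.87).

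Below the fold threshold, BMP4, a ligand of mesoderm and ureteric bud development, had 251, 251 and 233 normalized counts without VPA and 372, 339 and 334 with it (log2 fold change 0.51 ± 0.078, adjusted p = 7.17e-06, edgeR). BMP8B, a ligand of germ cells and brown fat, had 212, 220 and 215 against 385, 323 and 353 normalized counts (log2 fold change 0.71 ± 0.083, adjusted p = 1.61e-07, edgeR). All treated libraries exceeded all untreated ones in both genes. BMP8A, a near-identical copy of BMP8B, had 21.7, 32.4 and 28.3 against 44.1, 32.8 and 50.7 normalized counts (log2 fold change 0.63 ± 0.21, adjusted p = 0.0144, edgeR), and the highest untreated value all but met the lowest treated one. BMP8A no longer passed the adjusted p in DESeq2, or without untreated replicate 1 (log2 fold change 0.48) or VPA-treated replicate 3 (0.48). Reads shared by the copies could be set aside, so the counts of BMP8A and BMP8B are uncertain. BMP2 had a log2 fold change of 0.24 (adjusted p = 0.0265, edgeR). It no longer passed the adjusted p in DESeq2, or without untreated replicate 1 or 3 or VPA-treated replicate 1 or 2, with log2 fold changes of 0.20 to 0.23.

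BMP7 was the BMP ligand with the most counts, with 1282, 1274 and 1247 normalized counts in untreated cells and 1242, 1251 and 1189 in treated cells. Its groups overlapped, and the log2 fold change was -0.05 ± 0.047 (adjusted p = 0.398, edgeR). Per kilobase of exon, BMP7 made up 49.0% ± 0.56 of the summed level of the 8 tested BMP genes in untreated cells and 35.6% ± 1.16 in treated cells, whereas BMP6 went from 12.4% ± 0.31 to 22.8% ± 1.07 (SD, n = 3). BMP6 stood below BMP4 (16.6% ± 0.41) without VPA and above it (17.7% ± 0.66) with VPA on this scale. With the longest transcript as the length, BMP6 at 18.5% stayed below BMP4 at 23.0% in treated cells, so this order depends on the length used. BMP10 had 1 count in 2 of the 6 libraries and 0 in the others, and BMP15, on a chromosome whose genes are all listed at 0, had no count. BMP1, a protease named with the BMPs that cleaves procollagen and chordin, had 354, 320 and 342 against 392, 374 and 383 normalized counts (log2 fold change 0.18 ± 0.070, adjusted p = 0.0326, edgeR). BMP1 no longer passed in DESeq2, or without untreated replicate 2 or 3 or VPA-treated replicate 1 or 3.

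Growth and differentiation factor genes were up-regulated in 3 of 5 tested cases, with 10 listed, beside 12.0% of all tested genes. GDF10, a relative of BMP3, had 11.4, 10.5 and 14.7 normalized counts without VPA and 70.9, 52.0 and 59.4 with it, a log2 fold change of 2.31 ± 0.23 (adjusted p = 1.36e-08, edgeR). GDF7, a ligand of dorsal neural tube development, had 253, 260 and 251 against 646, 631 and 580 normalized counts, a log2 fold change of 1.28 ± 0.069 (adjusted p = 6.97e-13, edgeR). GDF6, a ligand of joint and eye development, had 35.2, 52.3 and 42.0 against 95.8, 102 and 107 normalized counts, a log2 fold change of 1.24 ± 0.15 (adjusted p = 3.46e-07, edgeR). In all 3 genes the lowest treated library lay well above the highest untreated one. GDF11, which patterns the body axis and is needed for kidney formation in the mouse, had the most counts of the group, with 970, 1083 and 1081 against 1585, 1565 and 1618 normalized counts. Its groups were also separate, at a smaller log2 fold change of 0.61 ± 0.050 (adjusted p = 9.63e-10, edgeR). GDF11 shares 378 exon bases (4.3%) with SARNP on the opposite strand, a gene with 9125 counts over the 6 libraries. GDF9, an oocyte factor, averaged 23.7 and 26.2 normalized counts with overlapping groups (adjusted p = 0.603, edgeR). GDF1, which lies wholly within exons of CERS1 on the same strand, and GDF2 had no count, GDF3 and GDF5 had 2 counts at most in any library, and GDF15, a stress-induced factor, had 4.87 ± 3.36 and 10.6 ± 5.10 normalized counts and was not tested.

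Activins are dimers of inhibin beta subunits, and inhibins pair a beta subunit with the alpha subunit INHA. INHBA had 1.04, 7.33 and 4.20 normalized counts in untreated cells and 24.0, 21.2 and 28.7 in treated cells. The treated libraries were all higher, and the log2 fold change was 2.53 ± 0.39 (adjusted p = 7.58e-06, edgeR), which was 2.07 without untreated replicate 1 and 3.17 without untreated replicate 2. INHBB had 30.0, 32.4 and 26.2 against 85.3, 91.5 and 82.3 normalized counts, a log2 fold change of 1.54 ± 0.16 (adjusted p = 2.87e-08, edgeR), and its groups were widely separate. INHA averaged 7.99 ± 4.31 and 10.9 ± 4.32 normalized counts, with overlapping groups (adjusted p = 0.383, edgeR). INHBC, INHBE and NODAL were not tested: INHBC had 8.37 ± 3.19 and 5.76 ± 1.94 normalized counts, INHBE had 1.39 ± 0.61 and 9.59 ± 5.07, and NODAL had 1 count at most in any library.

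**Figure D3:**
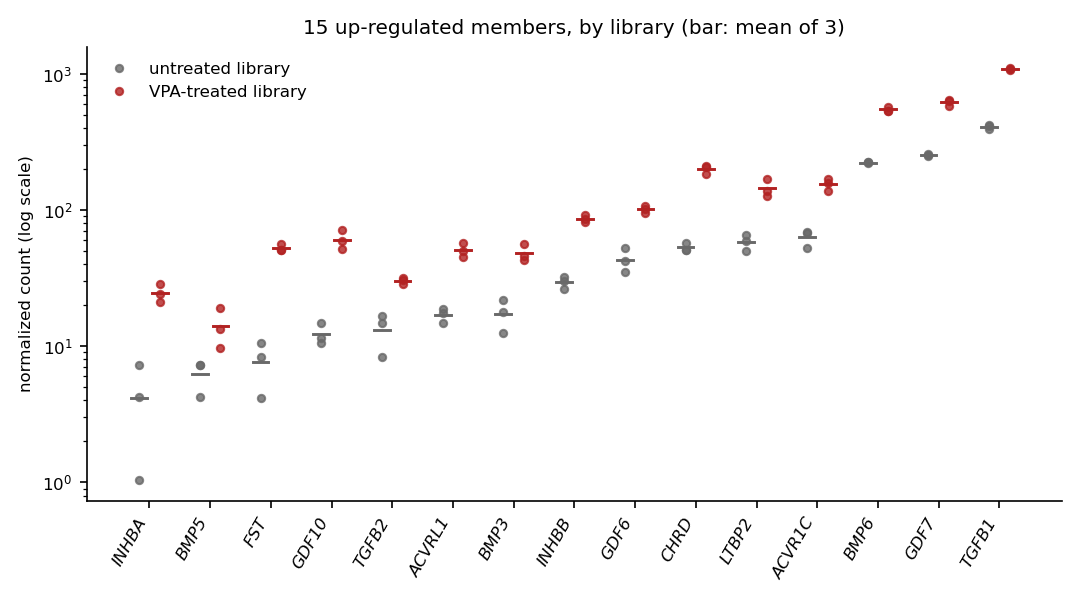
Normalized counts (log scale) of 15 up-regulated members in each untreated (grey) and VPA-treated (red) library, with bars at the mean of 3, ordered by the untreated mean. In each gene all 3 treated libraries lie above all 3 untreated ones, from INHBA at the low end to TGFB1, with means of 410 and 1091, at the high end.

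Over the ligand genes together, 19 of 29 were tested, 10 were up-regulated, 5 more were higher and 0 were lower at the adjusted p in edgeR. The shares over all tested genes were 12.0% up-regulated, 32.9% higher and 30.0% lower. TGFB2, BMP5 and INHBA could pass the filter only with the treated libraries, so these shares are not a like comparison for them. Most of the 19 had means under 500 normalized counts. There, 29.4% (under 50 counts) and 16.5% (50 to 500 counts) of all tested genes were up-regulated. None of the 19 was lower at an unadjusted p under 0.05 in edgeR or at the adjusted p in DESeq2. The median log2 fold change of the 19 was 1.15.

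All 11 receptor genes were tested, of which 2 were up-regulated, 2 more were higher and 2 were lower at the adjusted p. Among all tested genes 12.0% were up-regulated, 32.9% higher and 30.0% lower, so the receptor counts of up-regulated and higher genes were near these shares. The up-regulated ones were ACVRL1 and ACVR1C, type I receptors with few reads. ACVRL1, known as the endothelial receptor for BMP9 and BMP10, had 17.6, 14.7 and 18.9 normalized counts without VPA and 45.0, 56.8 and 49.8 with it (log2 fold change 1.56 ± 0.21, adjusted p = 1.28e-06, edgeR). ACVR1C, the receptor ALK7 for Nodal and some activins, had 52.8, 68.0 and 69.3 against 170, 157 and 138 normalized counts (log2 fold change 1.29 ± 0.13, adjusted p = 2.32e-08, edgeR). The groups did not overlap in either gene. TGFBR2, the type II receptor of TGF-beta, had 326, 330 and 351 against 521, 545 and 532 normalized counts (log2 fold change 0.67 ± 0.065, adjusted p = 1.17e-08, edgeR). All its treated libraries were higher, whereas its partner TGFBR1 averaged 895 ± 57.4 and 894 ± 63.7 normalized counts, with a log2 fold change of 0.00 ± 0.060 (adjusted p = 0.99, edgeR).

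Of the other type I receptors, ACVR1 was higher with a log2 fold change of 0.22 (adjusted p = 0.0128, edgeR), but it no longer passed in DESeq2 or without untreated replicate 1 (0.15). ACVR1B, an activin receptor and the type I receptor with the most counts, had 1163, 1191 and 1085 against 1081, 1086 and 1094 normalized counts, with overlapping groups (log2 fold change -0.08 ± 0.050, adjusted p = 0.184, edgeR). The BMP receptors BMPR1A, BMPR1B and BMPR2 had log2 fold changes of -0.08, -0.16 and 0.09 and did not pass, although BMPR2 did without untreated replicate 1 (0.11). ACVR2B, an activin type II receptor and the receptor gene with the most counts, had 1902, 1814 and 1745 against 1645, 1697 and 1639 normalized counts. Its groups were separate by a small margin, and its log2 fold change of -0.13 ± 0.045 (adjusted p = 0.0149, edgeR) turned to 0.13 when libraries were scaled on ribosomal protein genes and no longer passed without untreated replicate 1 (-0.11) or VPA-treated replicate 3 (-0.12). ACVR2A had a log2 fold change of -0.30 ± 0.079 (adjusted p = 2.47e-03, edgeR), which became -0.04 with that scaling, and it shares 431 exon bases (6.7%) with ORC4 on the opposite strand, a gene with 4883 counts. The co-receptor TGFBR3, or betaglycan, which presents TGF-beta to its receptors, had 864, 943 and 924 against 862, 774 and 775 normalized counts. The highest treated library lay just under the lowest untreated one, and the log2 fold change of -0.18 ± 0.057 (adjusted p = 9.50e-03, edgeR) turned to 0.08 with ribosomal protein scaling and did not pass without VPA-treated replicate 2 (-0.15).

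None of the 8 SMAD genes was higher in treated cells at the adjusted p in edgeR, at an unadjusted p under 0.05 (0 genes) or in DESeq2 (0 genes), and 4 were lower, of which SMAD2 turned in direction with ribosomal protein scaling. Among all tested genes 32.9% were higher and 30.0% lower at the adjusted p. The median log2 fold change of the 8 was -0.12. All tested genes with 500 normalized counts or more, the class of most SMAD genes, also had a median of -0.12. SMAD7, the inhibitory SMAD of TGF-beta signalling and itself a TGF-beta target, had 753, 690 and 631 normalized counts in untreated cells and 486, 485 and 439 in treated cells. Every treated library was lower, and the level fell by 0.56 ± 0.068 on the log2 scale (adjusted p = 3.75e-07, edgeR). SMAD4, the partner shared by all receptor SMADs, had 1104, 1103 and 1125 against 845, 826 and 866 normalized counts. Its groups were tight and separate, and it fell by 0.39 ± 0.049 on the log2 scale (adjusted p = 5.09e-07, edgeR). SMAD9 had the same log2 fold change to 2 decimals, -0.39 ± 0.065 (adjusted p = 2.18e-05, edgeR), and SMAD2 had -0.19 ± 0.058 (adjusted p = 8.88e-03, edgeR).

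SMAD7 and SMAD4 were the members that passed as lower under every scaling tried, including that on ribosomal protein genes, where SMAD9 had -0.13 and no longer passed. SMAD5, a BMP receptor SMAD and the one with the most counts, had 1665, 1550 and 1660 normalized counts without VPA and 1505, 1532 and 1652 with it. Its groups overlapped, and the log2 fold change was -0.06 ± 0.049 (adjusted p = 0.325, edgeR). SMAD6, the inhibitory SMAD of BMP signalling, had 2338, 2217 and 2129 against 2190, 2192 and 2073 normalized counts, also overlapping (log2 fold change -0.05 ± 0.045, adjusted p = 0.344, edgeR). SMAD1 and SMAD3, with log2 fold changes of -0.06 and 0.11, did not pass either, although SMAD3 did without untreated replicate 2 (0.14).

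The antagonists moved in opposite directions, with FST and CHRD up-regulated and NOG lower. FST, or follistatin, which binds activins and some BMPs, had 8.28, 4.19 and 10.5 normalized counts without VPA and 50.8, 55.9 and 50.7 with it, a log2 fold change of 2.76 ± 0.26 (adjusted p = 6.84e-09, edgeR). It had few reads without VPA, and its lowest treated library lay several times above the highest untreated one. CHRD, or chordin, which binds BMP2, BMP4 and BMP7, had 50.7, 51.3 and 57.7 against 207, 184 and 209 normalized counts, a log2 fold change of 1.91 ± 0.12 (adjusted p = 9.72e-12, edgeR). CHRD shares 361 exon bases (5.4%) with THPO on the opposite strand, a gene with 81 counts over the 6 libraries.

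NOG, or noggin, on chromosome 17 from 56593699 to 56595611, was the antagonist with the most counts in untreated cells, with 182, 156 and 145 normalized counts, against 138, 118 and 89.0 with VPA. Its groups came close without overlapping, and it fell by 0.49 ± 0.13 on the log2 scale (adjusted p = 3.46e-03, edgeR), or by 0.23 with no pass of the test under ribosomal protein scaling. Per kilobase of exon, NOG made up 88.5% ± 2.34 (SD, n = 3) of the summed level of NOG, CHRD and FST in untreated cells and 54.5% ± 5.65 in treated cells. CHRD went from 8.53% ± 1.32 to 27.8% ± 4.13 on this scale and FST from 2.95% ± 1.33 to 17.6% ± 2.14. NOG thus stayed the highest of these 3 per length on average in treated cells. GREM1 had 1 count in the untreated libraries together and 6 in the treated ones, LEFTY1 had 5 and 5, LEFTY2 had 0 and 8, and these genes were not tested.

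**Figure D4:**
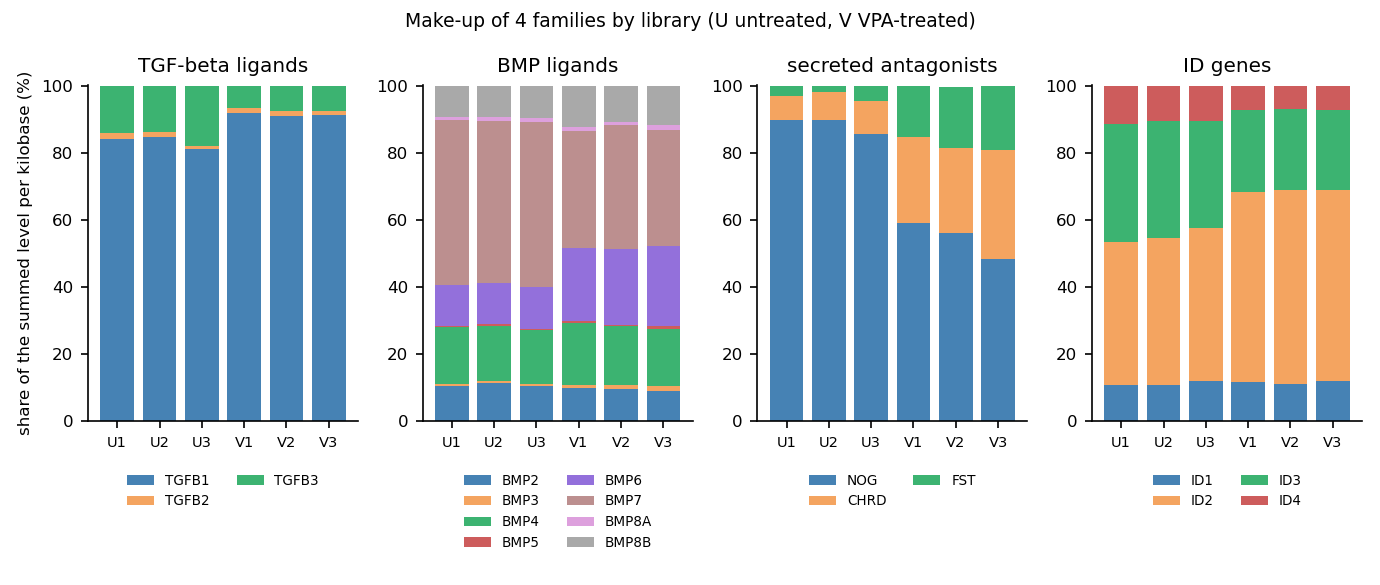
Share of the summed level per kilobase of exon held by each gene shown in 4 families (vertical axis, percent), with a stacked bar for each untreated (U) and VPA-treated (V) library. NOG takes 88.5% of the level of NOG, CHRD and FST on average without VPA and 54.5% with it, and ID2 takes 44.0% and 57.2% of the ID gene level.

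Latent TGF-beta binding proteins, which store TGF-beta or build microfibrils, were higher in 3 of 4 cases, beside 32.9% of all tested genes. LTBP2, which does not bind latent TGF-beta, had 49.7, 59.7 and 66.1 normalized counts without VPA and 168, 137 and 127 with it, a log2 fold change of 1.30 ± 0.14 (adjusted p = 6.31e-08, edgeR). LTBP4 had 846, 709 and 721 against 1577, 1442 and 1421 normalized counts, just under the fold threshold at 0.96 ± 0.062 (log2; adjusted p = 3.21e-11, edgeR) and over it without untreated replicate 1 (1.04). LTBP1, the form with the most counts, had 997, 1025 and 1013 against 1524, 1496 and 1591 normalized counts, a log2 fold change of 0.60 ± 0.047 (adjusted p = 3.52e-10, edgeR). The treated libraries were above the untreated ones in all 3 genes. LTBP3 averaged 406 ± 27.5 and 400 ± 40.8 normalized counts (adjusted p = 0.809, edgeR). Per kilobase of exon, LTBP4 made up 34.2% ± 2.39 of the family's summed level in untreated cells and 41.3% ± 1.33 in treated cells, below LTBP1 at 50.5% ± 2.11 and 47.3% ± 2.0. With the longest transcript as the length, LTBP4 at 46.7% was above LTBP1 at 37.5% in treated cells, so this order also depends on the length.

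The ID genes, which encode inhibitors of basic helix-loop-helix factors and are targets of BMP signalling, split evenly. ID2 was the member with the most reads of all, with 4317, 4077 and 3997 normalized counts in untreated cells and 6644, 6772 and 6263 in treated cells. Its treated libraries were all higher, with a log2 fold change of 0.67 ± 0.043 (adjusted p = 1.50e-11, edgeR). ID1 was higher by less, with means of 588 ± 29.2 and 736 ± 20.3 normalized counts and a log2 fold change of 0.32 ± 0.058 (adjusted p = 4.69e-05, edgeR). ID4 was lower, with a log2 fold change of -0.32 ± 0.061 (adjusted p = 1.34e-04, edgeR) that became -0.06 with ribosomal protein scaling. ID3 also passed as lower, at -0.21 ± 0.072 (log2, adjusted p = 0.0239, edgeR), but its groups overlapped. It no longer passed without untreated replicate 2 or VPA-treated replicate 3, and its sign turned with ribosomal protein scaling. Per kilobase of exon, ID2 made up 44.0% ± 1.47 of the summed level of the 4 genes without VPA and 57.2% ± 0.68 with it, and ID3 34.0% ± 1.87 and 24.2% ± 0.28. With the longest transcript as the length, ID3 held 43.4% and ID2 38.7% in untreated cells, so their order there depends on the length used.

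A wider list of 70 other genes of the pathway was examined in the same fit. Of the 52 tested, 10 were up-regulated and 0 down-regulated in edgeR or DESeq2, and 18 were higher and 20 lower at the adjusted p alone. At an unadjusted p under 0.05, 20 were lower. Their median log2 fold change was -0.02. The list thus had lower genes at 20 of 52, against 30.0% of all tested genes, and up-regulated genes at 10 of 52, against 12.0%. Of the 10, DCN, MSTN, ITGB8, LRRC32 and ATOH8 had fewer than 10 counts in some untreated library. These too could pass the filter only with the treated libraries, so the share of 12.0% is not a like comparison for them.

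Among the secreted proteins of the wider list, DCN (decorin, a proteoglycan that binds TGF-beta) had 3 counts in the untreated libraries together and 133 in the treated ones, a ratio of 40.8 with an exact 95% counting interval of 13.6 to 200.0. That interval covers counting noise only, not the spread between libraries. In edgeR the log2 fold change of DCN was 5.19 ± 0.46 (adjusted p = 2.70e-09), and it ranged from 4.65 to 8.43 when each library was left out. All 3 untreated counts were from replicate 3. MSTN, or myostatin, an activin-like ligand, had 3.11, 3.14 and 1.05 normalized counts against 21.1, 25.0 and 26.8 (log2 fold change 3.25 ± 0.40, adjusted p = 3.46e-07, edgeR). SOSTDC1, a BMP and Wnt antagonist of kidney and tooth, had a log2 fold change of 1.71 ± 0.16 (adjusted p = 6.50e-09, edgeR). Of the 8 tested genes of latent complex handling, 4 were up-regulated, beside 12.0% of all tested genes. For LRRC32 and ITGB8, which are among the 4, this share is not a like comparison, as said above. The BMP1-related proteases TLL1 and TLL2 had log2 fold changes of 1.53 and 1.94, the cell surface TGF-beta carrier LRRC32 had 1.79, and the activating integrin subunit ITGB8 had 1.73, or 2.44 without untreated replicate 1. In the same group FURIN was higher by 0.13 (log2; adjusted p = 0.0243), PCSK6 was lower by a log2 fold change of -0.46 (adjusted p = 4.09e-08, edgeR), and NRROS (0.48) and ITGAV (-0.03) did not pass.

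Of 7 tested targets of TGF-beta, 2 were up-regulated, 3 more were higher, 1 was lower and 1 did not pass. Among all tested genes 12.0% were up-regulated, 32.9% higher and 30.0% lower. A gene among the 3 shares 34.1% of its exon length with an opposite-strand gene that had 6507 counts over the 6 libraries. COL1A1 and FN1, matrix genes that TGF-beta induces in many cells, had log2 fold changes of 1.57 ± 0.063 (adjusted p = 6.08e-15) and 1.11 ± 0.043 (adjusted p = 3.31e-15) in edgeR. FN1 had 1903, 2076 and 2017 normalized counts without VPA and 4216, 4338 and 4368 with it, so its groups were far apart. CCN2 had 56.9, 46.1 and 30.4 against 90.1, 81.9 and 57.4 normalized counts (log2 fold change 0.78 ± 0.20, adjusted p = 2.46e-03, edgeR). TGFBI had 4 counts over the 6 libraries and was not tested. SKIL and PMEPA1 were not among these 7 and were counted with the genes that regulate SMAD proteins. SKIL, an immediate TGF-beta target and SMAD repressor, had a log2 fold change of -0.29 (adjusted p = 5.89e-04, edgeR). That of PMEPA1 was -0.01 (adjusted p = 0.889, edgeR). SKIL did not pass under ribosomal protein scaling.

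Of 5 tested BMP targets, 1 was up-regulated, 2 more were higher and 2 did not pass, beside 12.0% up-regulated and 32.9% higher among all tested genes. The up-regulated target, ATOH8, could pass the filter only with the treated libraries, so 12.0% is not a like comparison for it. ATOH8 rose with a log2 fold change of 2.03 ± 0.23 (adjusted p = 8.72e-08, edgeR), MSX2 had 0.25 (adjusted p = 1.24e-03, edgeR) and MSX1 0.16 (adjusted p = 0.107, edgeR), or 0.25 with a pass of the test without untreated replicate 1. BAMBI, which was not counted among these 5 targets, is a pseudoreceptor that BMP and TGF-beta signalling induces. It had 399, 429 and 419 normalized counts against 290, 286 and 321, and fell by 0.47 ± 0.072 on the log2 scale (adjusted p = 6.94e-06, edgeR). Of 13 genes that regulate SMAD proteins, such as the repressors SKI and TGIF1 and the ubiquitin ligases SMURF1 and SMURF2, 8 were lower, 1 was higher (HIPK2) and 4 did not pass at the adjusted p in edgeR. Over all tested genes 30.0% were lower. STUB1, among the lower ones, shares 42.5% of its exon length with JMJD8 on the opposite strand, a gene with 13078 counts. The median log2 fold change of the 13 was -0.20, beside 0.0058 over all tested genes. The median was -0.12 over all tested genes with 500 normalized counts or more, the class of most of the 13. With ribosomal protein scaling, 1 of the 13 was lower and 6 were higher, and the median was 0.07.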

How the data were processed

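The deposited values are raw counts per gene in 3 untreated and 3 VPA-treated libraries. The authors cleaned paired-end reads with SOAPnuke, and the submitters' processing notes name STAR 2.7.10b and HTSeq 2.0.1 on hg38. The annotation and the strand setting are not given in the sources used here. Exons on the opposite strand overlap more members than those flagged above. Among them are GDF9 (6.3% of its exon length, with UQCRQ at 11261 counts), BMP8A (7.4%, with PPIEL at 1096), BMP8B (1.7%, with PPIE at 7285) and BMP6 (5.6%, with TXNDC5 at 978). Of the listed reads, 6.80% to 7.69% per library fell on no gene, 1.97% to 2.10% were ambiguous and 2.81% to 2.92% had several places. These were left out, which lowers the counts of near-identical copies. Totals on genes were 18622267 to 18828495 counts.

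The test was edgeR's quasi-likelihood test (edgeR 4.0.16, R 4.3.3; robust, TMM scaling, prior count 0.125, no covariate) on the 15298 genes kept by filterByExpr at a minimum of 10, with Benjamini-Hochberg adjustment over these genes. SE was taken as the size of the log2 fold change over the root of F. The biological coefficient of variation was 3.83%. Calls needed an adjusted p below 0.05 with a log2 fold change of 1 or more, or -1 or less, thresholds taken from the study's methods. The procedure was tested on simulated data. Levels per kilobase use the union of GENCODE 44 exons, and gene positions and promoters are those of RefSeq on GRCh38.p14.

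Alternatives were DESeq2 1.42.0, its size factors, upper quartile, library total and ribosomal protein scaling, stricter or no filtering, glmTreat, a prior of 2, a replicate block, and each library omitted. Library values are given for called members, for those past the adjusted p with a log2 fold change of 0.5 or more in either direction and for the member with the most counts in each role. Of the wider list, called genes and a few set targets or regulators are named, and a few others illustrate a group. Members, lists and rules were chosen with earlier results of these data known. A member and a few marker and target genes that enter the counts are not reported here by name or value. The ChIP-seq, Hi-C and imaging data of the study were not analysed here.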

Additional observations from a re-analysis of the deposited data

How the results depend on the processing

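The count of up-regulated members (16) went to 9 when genes under a mean count of 50 were dropped, which tests fewer genes, and to 10 with glmTreat, where the fold threshold is part of the test. The up-regulated other pathway genes went from 10 to 5 when every library had to reach 10 counts and to 5 at a mean count of 50. Among all genes 8.49% and 7.98% were up-regulated in these 2 fits, and 7.51% were with glmTreat. The count of lower members (10) depended on scaling, at 6 (upper quartile), 5 (library totals) and 2 (ribosomal protein genes). These scalings moved the median log2 fold change of all genes from 0.0058 to 0.07, 0.14 and 0.27, and the share of genes past the adjusted p that were higher from 52.3% to 63.0%, 73.9% and 91.1%. Leaving out each library gave 15 to 17 up-regulated members, 25 to 28 higher and 8 to 10 lower, and 10 to 12 up-regulated other genes, with 0 down-regulated in either list.

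Same-numbered libraries deviated together only weakly, with correlations of 0.139, 0.0214 and 0.0805. These were the highest values for each VPA-treated library, but untreated replicate 2 correlated better with VPA-treated replicate 3 (0.0308). Such weak values do not settle whether the replicate numbers mark pairs. With the replicate block 16 members were up-regulated, 0 down-regulated, 30 higher and 10 lower, and 10 other genes were up-regulated. Of 1062 values of named genes under the alternatives, 956 kept their direction and their side of the threshold, 41 no longer passed, 22 newly passed and 43 turned in direction.

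Upper quartile scaling turned the log2 fold change of BMP7 (to 0.019), TGFBR1 (to 0.064), SMAD1 (to 0.006), SMAD5 (to 0.009), SMAD6 (to 0.015), LTBP3 (to 0.042) and PMEPA1 (to 0.050). Library totals turned the log2 fold change of BMP7 (to 0.085), TGFBR1 (to 0.131), ACVR1B (to 0.055), BMPR1A (to 0.052), SMAD1 (to 0.072), SMAD5 (to 0.075), SMAD6 (to 0.081), LTBP3 (to 0.108) and PMEPA1 (to 0.116). Ribosomal protein scaling turned the log2 fold change of BMP7 (to 0.216), TGFBR1 (to 0.262), ACVR1B (to 0.186), BMPR1A (to 0.183), BMPR1B (to 0.103), ACVR2B (to 0.129), TGFBR3 (to 0.084), SMAD1 (to 0.204), SMAD2 (to 0.078), SMAD5 (to 0.206), SMAD6 (to 0.211), ID3 (to 0.056), LTBP3 (to 0.239) and PMEPA1 (to 0.247). A minimum of 10 counts per library turned the log2 fold change of TGFBR1 (to 0.021) and PMEPA1 (to 0.007). A mean count of 50 turned the log2 fold change of TGFBR1 (to 0.033), LTBP3 (to 0.011) and PMEPA1 (to 0.019). Leaving out a library turned GDF9 (-0.024 to 0.322), TGFBR1 (-0.056 to 0.046), LTBP3 (-0.102 to 0.045) and PMEPA1 (-0.083 to 0.041). None of these had passed the test except ACVR2B, TGFBR3, SMAD2 and ID3, which turned with ribosomal protein scaling; the cause was not tested.

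Shares of a family's level moved by more than 1 SD between replicates with the longest transcript as the length, chosen after seeing the data: NOG held 85.4% in untreated cells and 48.4% in treated cells, BMP7 52.0% and 39.0%, and TGFB1 79.9% and 89.8%. Depth limited the members under 50 normalized counts, where the SE reached 0.42.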
